A study of Mus musculus with 12 samples.

Results

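The normal adult mouse liver is described here from the 4 wild-type libraries, which are all the wild-type samples among the 12 libraries of the series. They were chosen by their genotype and tissue labels (wild-type, control liver), and the other 8 libraries, from E2f7/8 DKO and E2f7/8/Rb1 TKO liver tumors, were not used. Each library came from the liver of a wild-type mouse labelled adult and matched for age to the tumor-bearing mice, with no treatment named. The mice came from a colony bred onto FVB, belonged to an ageing cohort, and were killed when humane end-points were reached, and neither the age in weeks nor the hour of collection is given in the labels. By the study's methods the controls of the liver experiment were littermates without the Cre transgene that albumin regulatory sequence drives in hepatocytes. The labels give no sex, no batch and no statement of relatedness. The names of the count columns carry a letter and a number whose meaning is not given, and livers 2 and 3 share the letter. No statement of separate processing is given, so the spread given below is that between these 4 libraries.

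The liver is built mainly of hepatocytes, which secrete most of the proteins of blood plasma, take up and release glucose and lipids, convert ammonia to urea, make bile acids and oxidize foreign compounds with cytochrome P450 enzymes. Hepatocytes near the portal vein and near the central vein divide these tasks, which is called zonation. Bile duct cells (cholangiocytes), sinusoidal endothelial cells, resident macrophages (Kupffer cells) and vitamin A-storing stellate cells make up most of the rest. Male and female mouse livers differ in many P450, sulfotransferase and urinary protein genes, because the pituitary releases growth hormone in a different rhythm in each sex. Many liver genes also follow the time of day, feeding and inflammation.

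Levels are given as counts per 1000000 counts of a library (CPM), in the order of livers 1, 2, 3 and 4, followed where useful by the mean ± SD over the 4 livers. CPM was used to compare livers. To compare genes with each other, CPM was divided by exon length and rescaled to the same sum in every liver, which is called TPM. The coefficient of variation (CV) is the SD as a percentage of the mean. The libraries held 12845303, 9165812, 16190797 and 13864168 counts over 26301 genes, so that 3 counts corresponded to 0.234, 0.327, 0.185 and 0.216 CPM. At least 1 count was found for 18778, 17280, 18910 and 18562 genes. A mean of at least 1 CPM was reached by 12719 genes, a mean of at least 10 CPM by 7535, of at least 100 CPM by 1285, and of at least 1000 CPM by 128 genes, while 4703 genes had 0 counts in all 4 livers. Protein-coding genes held 97.6% ± 0.111 of the counts.

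The counts were concentrated in few genes. Albumin, the main carrier protein of plasma, alone held 6.57%, 9.79%, 10.1% and 8.83% of them. The 10 highest genes of each liver held 16.7%, 19.2%, 19.2% and 20.7%, and the 100 highest held 43.4%, 48.1%, 47.4% and 44.4%. It took 169, 117, 124 and 154 genes to reach 50% of the counts, and 3777, 3282, 3309 and 3591 genes to reach 90%. Liver 1 had the flattest distribution and liver 2 the steepest at the 50% mark, although liver 2 had fewer counts than each of the others. The genes under a mean of 1 CPM together held 0.170% ± 0.0297.

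**Figure D1:**
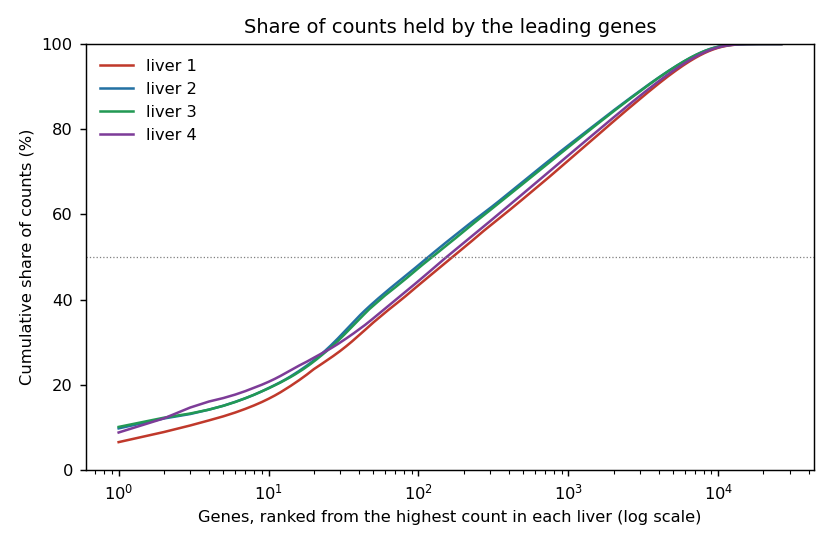
Cumulative share of all counts of a liver (vertical axis, percent) against the number of genes in descending order of count (horizontal axis, log scale), with a line for each of the 4 wild-type livers. The lines start at the albumin share of 6.57% to 10.1%, cross 50% between 117 and 169 genes and reach 90% between 3282 and 3777 genes.

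Of the 25 genes with the highest mean CPM, 23 encode secreted proteins. The other two are Cyp2e1, a P450 enzyme that oxidizes ethanol and other small molecules, and Mat1a, which makes S-adenosylmethionine. Alb (mm9 chromosome 5 from 90889915 to 90905629) was at 65677, 97928, 101340.0 and 88265 CPM, or 88302 ± 16067 (SD, n = 4), and it was lowest in liver 1. Trf, the iron carrier transferrin, was at 23617, 23169, 21567 and 33049 CPM and was highest in liver 4. Hpx, hemopexin, which binds free heme, was at 15409, 6076, 5804 and 25501 CPM, so that livers 1 and 4 were clearly above livers 2 and 3, and its CV of 70.8% was the highest among these 25 genes. C3, the central complement component, had a like order of livers, at 11939, 7149.9, 7764 and 14112 CPM. Selenop, a selenium carrier, was far more even at 9632, 8486, 8254 and 8152 CPM (CV 7.90%), as was Gc, the vitamin D-binding protein, at 7754, 6694, 7228 and 6901 CPM (CV 6.47%). Cyp2e1 was at 7528, 10491, 9107 and 6775 CPM and Mat1a at 6162, 4189, 4311 and 4534 CPM, the former highest in liver 2 and the latter in liver 1.

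Exon length changed the order of the leading genes. Per length, Alb was still the highest at 94753 ± 14807 TPM, followed by Hpx at 20167 ± 15060.0 TPM, Serpina1c, an alpha-1-antitrypsin gene, at 14251 ± 981 TPM, Apoa1 at 13962 ± 2473 TPM and Apoa2, both apolipoproteins of high-density lipoprotein, at 13784 ± 4779 TPM. The last 4 of these did not differ from each other beyond their SDs. C3, with 5132 bases of exon, dropped from rank 4 by CPM to rank 40 by TPM, at 4450.1 ± 1666 TPM. Hamp, the iron-regulating peptide hormone hepcidin, which has short exons, moved from rank 92 by CPM to rank 24 by TPM, at 7531 ± 1874 TPM. Trf could not be placed, because no exon length was matched to it, and 22637 genes with 95.7% of the counts had a length.

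The sequence before the start site of Alb is shown because CCAAT, a motif searched in it, recurs in the cholesterol genes further on. The stretch ends 1 base before the start site, from RefSeq on the GRCm38.p6 build, in the gene's own direction, and the capitals mark the only CCAAT on either strand within positions -120 to -40.
Alb, chr5:90460740-90460869, plus strand: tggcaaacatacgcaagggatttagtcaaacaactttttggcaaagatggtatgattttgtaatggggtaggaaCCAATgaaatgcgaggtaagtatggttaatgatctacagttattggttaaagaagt
The CCAAT started at position -56, and the window held no TATAAA between -40 and -20. Over all 21591 promoters of 17816 genes in the table, 18.5% held CCAAT on either strand in that window, and 2.44% held TATAAA on the gene's strand between -40 and -20. Among the 100 highest genes by CPM, 68 genes with 80 promoters were found, of which 4 held TATAAA and 18 (22.5%) held CCAAT. Their promoters were poor in the CG dinucleotide, taken over the 250 bases before the start site. The observed count over that from base composition (CG ratio) had a median of 0.224. It was 0.540 over all promoters and 0.718 over the promoters of other expressed genes below rank 1000.

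Plasma proteins in 5 functional lists of 99 genes held 30.9%, 30.9%, 30.8% and 32.4% of the counts, a mean of 31.3% ± 0.771 (SD, n = 4), which makes their sum more even than any of the 5 lists alone. Carrier and binding proteins, with albumin, held 17.0%, 18.4%, 18.6% and 20.8%. Apolipoproteins and lipoprotein enzymes, which move lipids in blood, held 2.93%, 3.86%, 3.29% and 3.13% and were highest in liver 2. Serpin A protease inhibitors held 4.39%, 3.67%, 4.04% and 3.24%, coagulation and fibrinolysis factors 4.17%, 3.45%, 3.22% and 2.65%, and complement components 2.44%, 1.58%, 1.67% and 2.61%. The coagulation sum was thus highest in liver 1 and lowest in liver 4, while the complement sum was higher in livers 1 and 4 than in livers 2 and 3. The 23 coagulation genes did not share that order one by one. Of them, 7 were lowest in liver 1 and 7 in liver 4, beside 16.1% and 22.6% of all genes.

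Within these lists, some genes hardly varied and others varied several-fold. F2, prothrombin, was at 1522, 1649, 1638 and 1645 CPM and Plg, plasminogen, at 3167, 2878, 2771 and 2783 CPM, with CVs of 3.79% and 6.36%. The 3 fibrinogen chains, which are joined into the clotting protein, followed a common order instead. Fga was at 7608, 5981, 5280.1 and 3495 CPM, Fgb at 8934, 6375, 6202 and 3696 CPM and Fgg at 6651, 4626, 3758 and 2388 CPM, all highest in liver 1 and lowest in liver 4. Cfb, complement factor B, stood at 1676, 1365, 1461 and 3376 CPM and was highest in liver 4. Apoe was at 6395, 9226, 8962 and 8079 CPM, Apoa2 at 1959, 5168, 3538 and 2960.5 CPM, and Apob, the scaffold of very-low-density lipoprotein, at 3562, 1898, 2762 and 3741 CPM. Apoa2 was highest and Apob lowest in liver 2.

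Shares within a library add up to a fixed total, so each level depends on the others. Over the 12719 genes with a mean of at least 1 CPM, liver 1 was the highest of the 4 livers for 40.9%, liver 2 for 21.4%, liver 3 for 9.07% and liver 4 for 28.7%, so counts of list members are read against these percentages. Scaling by the trimmed mean of M-values (TMM), which discounts the most extreme genes, shifted the log2 levels by -0.13 in liver 1, 0.09 in liver 2, 0.08 in liver 3 and -0.04 in liver 4, and the counts of genes highest in livers 1 to 4 became 3304, 3760, 2273 and 3382. Of the 19 complement genes, 11 were highest in liver 1 and 7 in liver 4 (9 and 6 with TMM). Of the 18 apolipoprotein genes, 9 were highest in liver 2 with either scaling.

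The major urinary proteins (Mup), small pheromone-binding proteins made by the liver and excreted in urine, were the next largest class. Their 20 genes lie in a cluster on chromosome 4 and held 5.97%, 9.50%, 8.65% and 4.56% of the counts, or 7.17% ± 2.30 (SD, n = 4). Together with the 99 plasma protein genes they made up 38.5% ± 1.78 of all counts and 46.9% ± 2.42 of the TPM. Of the 20 genes, 17 were highest in liver 2 (17 with TMM), beside 21.4% of all genes, and 17 were lowest in liver 4, beside 22.6%. Mup15 was at 5082, 7991, 6641 and 3089 CPM and Mup3 at 4284, 5731, 5969 and 4205 CPM. Mup20 (darcin), the member that draws females to male urine, had another order, at 1022, 770.1, 634 and 354 CPM, highest in liver 1, and Mup21 stood at 535, 1678, 1409.6 and 805 CPM, lowest in liver 1.

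Reads of 40 bases separate these genes poorly. Of the 40-base windows of an annotated transcript that lie whole in the mm9 genome, a median of 14.2% over the 20 Mup genes occurred there only once, and 15 genes were below 50%. It was 3.37% for Mup15 and 13.4% for Mup20, but 70.5% for Mup3, 66.1% for Mup21, 75.1% for Mup4 and 84.4% for Mup6. The members with few unique windows are therefore uncertain one by one. Mup4, at 172, 324, 331 and 193 CPM, and Mup6, at 181, 360.5, 307 and 164 CPM, which can be told apart better, were likewise higher in livers 2 and 3 than in livers 1 and 4. The alpha-1-antitrypsin genes share this limit, with 25.5% for Serpina1a, 42.9% for Serpina1b and 20.7% for Serpina1c. Serpina1a was at 8089, 8040.4, 8704 and 6943 CPM, Serpina1b at 7126, 7698, 9052 and 6862 CPM and Serpina1c at 8513, 9063, 9896 and 7856 CPM, all lowest in liver 4 and highest in liver 3.

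Cytochrome P450 genes of families 1 to 4, with 81 members, held 2.67%, 3.40%, 3.37% and 3.16% of the counts, and 40 of the 68 members above 1 CPM were lowest in liver 1, beside 16.1% of all genes. Family 2, which has most of the drug-oxidizing enzymes, held 1.89%, 2.54%, 2.39% and 2.16%. Family 3 held 0.565%, 0.585%, 0.663% and 0.661%, with a median CV of 11.2% over its 9 genes, beside 20.05% over all genes at 1 CPM. Cyp3a11, the main drug-oxidizing enzyme of that family, was at 3693, 3902, 4551 and 4549 CPM. Cyp2c29 varied more, at 851, 2143, 1492 and 1179 CPM, with its highest level in liver 2. Cyp2f2, a periportal enzyme of family 2, stood at 869, 942, 1436 and 1694 CPM, with livers 3 and 4 above livers 1 and 2. Cyp8b1, which sets the share of cholic acid among bile acids, was at 142, 703, 187 and 91.4 CPM and was thus above the other livers in liver 2 alone. Cyp4a10 and Cyp4a14, omega-hydroxylases of fatty acids, were likewise highest in liver 2, at 16.04, 133, 28.6 and 36.4 CPM and 11.99, 47.6, 16.2 and 12.8 CPM.

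TATAAA, the core of the TATA box, was found in more of the P450 promoters than of all promoters. Of 72 promoters of 65 P450 genes, 10 (13.9%) held TATAAA between -40 and -20, beside 2.44% of all promoters. The median CG ratio of the 72 was 0.150. The 10 belong to Cyp2e1 and to members of the Cyp1a, Cyp2a and Cyp2c subfamilies, so they include related promoters counted separately. Those of Cyp2e1, of Cyp1a2, which oxidizes caffeine, and of Cyp2a5, a coumarin hydroxylase, are shown to illustrate where the motif lies, each ending 1 base before the start site, with TATAAA in capitals.
Cyp2e1, chr7:140763719-140763818, plus strand: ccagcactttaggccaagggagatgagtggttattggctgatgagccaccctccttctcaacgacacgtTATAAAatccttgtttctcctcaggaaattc
Cyp1a2, chr9:57683656-57683755, minus strand: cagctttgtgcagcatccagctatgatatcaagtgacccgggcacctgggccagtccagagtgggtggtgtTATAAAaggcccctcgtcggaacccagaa
Cyp2a5, chr7:26835239-26835338, plus strand: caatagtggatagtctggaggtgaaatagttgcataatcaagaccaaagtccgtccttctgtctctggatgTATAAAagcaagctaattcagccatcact
The capitals begin at position -31, -29 and -29. Cyp1a2 was at 385, 686, 761 and 692 CPM and Cyp2a5 at 313, 512, 687 and 831 CPM, both lowest in liver 1.

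Enzymes that conjugate or split drugs and steroids held smaller shares of the counts. Glutathione S-transferases held 0.871%, 1.14%, 1.03% and 0.916% of the counts, and 16 of 22 members above 1 CPM were highest in liver 2 (16 with TMM) and 17 lowest in liver 1, beside 21.4% and 16.1% of all genes. Mgst1, a microsomal member, was at 3991, 4379, 3997 and 3181 CPM. Carboxylesterases, which split esters and lipids, held 0.595%, 0.751%, 0.964% and 0.882%, and 15 of 18 were lowest in liver 1, beside 16.1%. Ces1c, a secreted esterase of mouse plasma, was at 2392, 2508, 3373 and 2802 CPM. UDP-glucuronosyltransferases held 0.467%, 0.499%, 0.589% and 0.568% and sulfotransferases 0.167%, 0.180%, 0.170% and 0.127%. Ugt2b36 was even, at 1052, 1085, 1173 and 1145 CPM (CV 4.95%), whereas Sult2a8 was at 862, 1104, 1116 and 661 CPM and lowest in liver 4.

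**Figure D2:**
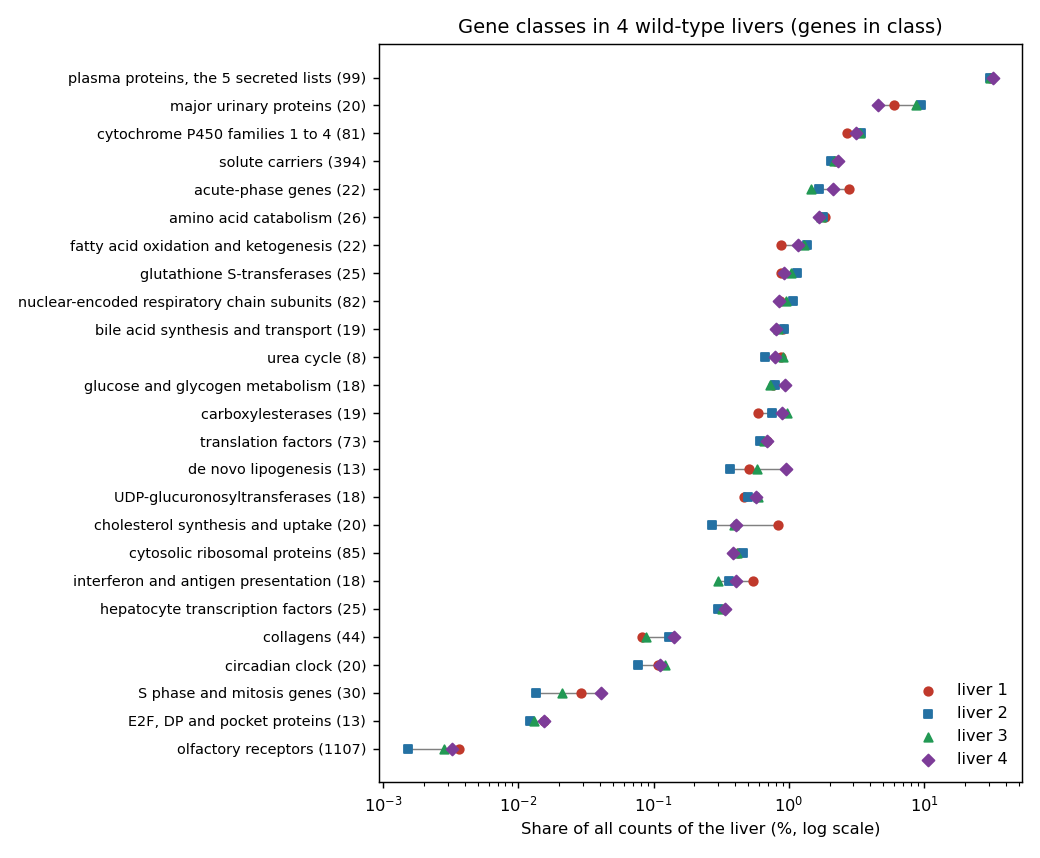
Share of all counts of a liver held by each gene class (horizontal axis, percent on a log scale), with the number of genes in brackets, a point for each of the 4 wild-type livers and a grey line from the lowest to the highest. Plasma proteins lie at 30.8% to 32.4% with overlapping points, while major urinary proteins (4.56% to 9.50%), lipogenesis (0.366% to 0.945%), cholesterol synthesis (0.269% to 0.827%) and S phase genes (0.0135% to 0.0410%) are spread out.

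In core metabolism, the 8 genes of the urea cycle held 0.867%, 0.669%, 0.906% and 0.789% of the counts, with a median CV of 11.4%. Cps1, its entry enzyme, was at 4050.5, 2531, 4308 and 3448 CPM and Otc at 583, 619.8, 645 and 491 CPM, the latter with a CV of 11.5%. Amino acid catabolism, with 26 genes, held 1.85%, 1.77%, 1.72% and 1.68%, and the CV of this share, 4.13%, was below that of the other metabolic lists. Tdo2, which opens tryptophan breakdown, was at 1209.5, 1329.7, 1544 and 1129 CPM (CV 13.8%), and Hpd, an enzyme of tyrosine breakdown, at 879, 1475, 1191 and 1033 CPM. Bhmt, which methylates homocysteine from betaine, stood at 788, 1424, 513 and 333 CPM, highest in liver 2 and lowest in liver 4.

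Genes of glucose and glycogen metabolism held 0.769%, 0.792%, 0.726% and 0.943%. Pck1, which opens gluconeogenesis, was at 1548, 706, 938 and 1994 CPM, lowest in liver 2 and highest in liver 4. Bile acid synthesis and transport held 0.909%, 0.917%, 0.828% and 0.799%. Cyp7a1, the rate-limiting enzyme of bile acid synthesis, was at 609, 361, 338 and 323 CPM and Slc10a1, the main bile acid importer, at 602, 978, 729 and 506 CPM. Cyp7a1 was thus highest in liver 1 and Slc10a1 in liver 2.

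Genes of fat oxidation and of fat synthesis followed different orders of livers. Fatty acid oxidation and ketogenesis, with 22 genes, held 0.880%, 1.36%, 1.29% and 1.18%, and 17 of the genes were lowest in liver 1, beside 16.1% of all genes. Cpt1a, which lets fatty acids into mitochondria, was nearly constant at 386, 362, 387 and 399.7 CPM (CV 4.05%). De novo lipogenesis, with 13 genes, held 0.508%, 0.366%, 0.578% and 0.945%, and 10 of the genes were lowest in liver 2, beside 38.0% of all genes. Scd1, the stearoyl-CoA desaturase, was at 2233, 2107, 3305 and 5561 CPM, Thrsp, a lipogenic regulator, at 738, 298, 716 and 1327 CPM, and Fasn, fatty acid synthase, at 579, 167, 261 and 587 CPM. Srebf1, the transcription factor of this programme, was at 297, 135, 289 and 457 CPM and lowest in liver 2 too. The median CV of the 13 genes was 44.6% over 4 livers and 27.98% without liver 2. Angptl4, a fasting-induced inhibitor of lipoprotein lipase, was at 34.2, 105, 31.6 and 60.8 CPM. Whether the mice had eaten before collection is not given, and its part in these values was not tested.

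Cholesterol synthesis and uptake differed between the livers mainly through liver 1. Its 20 genes held 0.827%, 0.269%, 0.390% and 0.408% of the counts, and the median CV of its 19 members above 1 CPM was 60.1%, beside 20.05% over all genes, and 25.2% without liver 1. All 19 were highest in liver 1 (18 with TMM), beside 40.9% of all genes, and 16 were lowest in liver 2, beside 38.0%. Msmo1, which removes methyl groups from the sterol ring, was at 866, 246, 414 and 359 CPM. Sc5d, a sterol desaturase, was at 614, 315, 528 and 365 CPM.

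Further members had the same highest liver. Sqle, squalene epoxidase, was at 377, 57.3, 108 and 128 CPM, Lss, which closes the sterol rings, at 178, 24.98, 70.3 and 68.3 CPM, and Cyp51 at 744, 160.4, 259.7 and 192 CPM. Fdps was at 327, 49.2, 92.9 and 63.8 CPM and Idi1 at 426, 61.0, 124 and 102 CPM, both with few unique windows (28.8% and 16.4%). Srebf2, the transcription factor that drives the pathway, differed less, at 106, 63.9, 61.1 and 71.2 CPM. Hmgcs1, an early enzyme of the pathway, was listed at 0 in all 4 livers although the other 19 genes were above 1 CPM, so its row gives no level.

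Promoters of 13 of these 20 genes, 16 in all, were in the table. CCAAT or its reverse complement ATTGG stood between -120 and -40 in 8 of them, beside 18.5% of all promoters, and their median CG ratio of 0.843 was above the 0.540 over all. The 5 promoters below belong to genes that range from 9.06 to 866 CPM in single livers and illustrate the position of the motif, which is in capitals, and each ends 1 base before the start site (RefSeq, GRCm38.p6).
Msmo1, chr8:64733579-64733708, minus strand: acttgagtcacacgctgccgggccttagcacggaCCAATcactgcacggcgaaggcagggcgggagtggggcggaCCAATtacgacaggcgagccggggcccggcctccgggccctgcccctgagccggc
Lss, chr10:76531475-76531604, plus strand: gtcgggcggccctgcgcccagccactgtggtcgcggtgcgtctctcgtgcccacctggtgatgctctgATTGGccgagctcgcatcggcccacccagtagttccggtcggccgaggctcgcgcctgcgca
Idi1, chr13:8885476-8885605, plus strand: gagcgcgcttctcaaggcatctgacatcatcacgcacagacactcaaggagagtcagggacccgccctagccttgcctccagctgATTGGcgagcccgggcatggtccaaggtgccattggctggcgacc
Mvd, chr8:122443423-122443552, minus strand: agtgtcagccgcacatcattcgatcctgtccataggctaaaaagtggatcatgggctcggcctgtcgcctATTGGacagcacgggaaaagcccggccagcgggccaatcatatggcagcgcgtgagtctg
Mvk, chr5:114444139-114444268, plus strand: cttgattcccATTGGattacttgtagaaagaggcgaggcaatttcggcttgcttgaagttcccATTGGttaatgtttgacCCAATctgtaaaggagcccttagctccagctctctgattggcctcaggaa
The motif began at -62 in Lss, at -45 in Idi1 and at -60 in Mvd, and stood 2 times in the window of Msmo1 and 3 times in that of Mvk. The levels of Mvd and Mvk, enzymes of the mevalonate branch, were 38.1, 9.06, 15.3 and 13.7 CPM and 48.7, 17.2, 16.2 and 18.6 CPM. A match of letters does not show that a factor binds there. The sterol-response letters TCACCCCAC were searched on either strand over all 250 bases before the start site. They stood in 1 of the 16 promoters and in 0.491% of all promoters.

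Acute-phase genes, which hepatocytes switch on in inflammation, differed along another line. The 22 genes held 2.80%, 1.66%, 1.45% and 2.13% of the counts, with a median CV of 47.9%. Liver 1 was highest for 15 (15 with TMM), beside 40.9% of all genes (26.0% with TMM), and liver 4 for 4, beside 28.7%. Of the 22, 20 were lowest in liver 2 or 3, beside 38.0% of all genes lowest in liver 2 and 23.3% in liver 3. Hp, haptoglobin, was at 4518, 2164, 1534 and 8228 CPM, and Cp, ceruloplasmin, at 2422, 1323, 1411 and 2201 CPM, both with livers 1 and 4 above livers 2 and 3. Itih4, an inter-alpha-trypsin inhibitor chain, was at 3890.4, 2698, 2443 and 2594 CPM, highest in liver 1.

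The serum amyloid genes, the classical acute-phase responders, differed several-fold between livers. Saa1 was at 204, 24.9, 32.3 and 91.7 CPM, Saa2 at 67.7, 4.69, 12.2 and 22.4 CPM and Saa3 at 22.8, 6.33, 8.03 and 105 CPM. Saa1 and Saa2 were thus highest in liver 1 and Saa3 in liver 4. Lcn2, an iron-siderophore binder of innate immunity, was at 122, 25.9, 17.7 and 129 CPM, nearly equal in livers 1 and 4. Crp, which in mice responds weakly, was at 611, 257, 305 and 422 CPM and Apcs, serum amyloid P, at 1959, 591, 674 and 603 CPM. The metallothioneins Mt1 and Mt2, metal-binding proteins, had a pattern of their own, at 349, 384, 63.0 and 64.3 CPM and 119.5, 128, 8.52 and 9.81 CPM, high in livers 1 and 2 and low in livers 3 and 4.

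**Figure D3:**
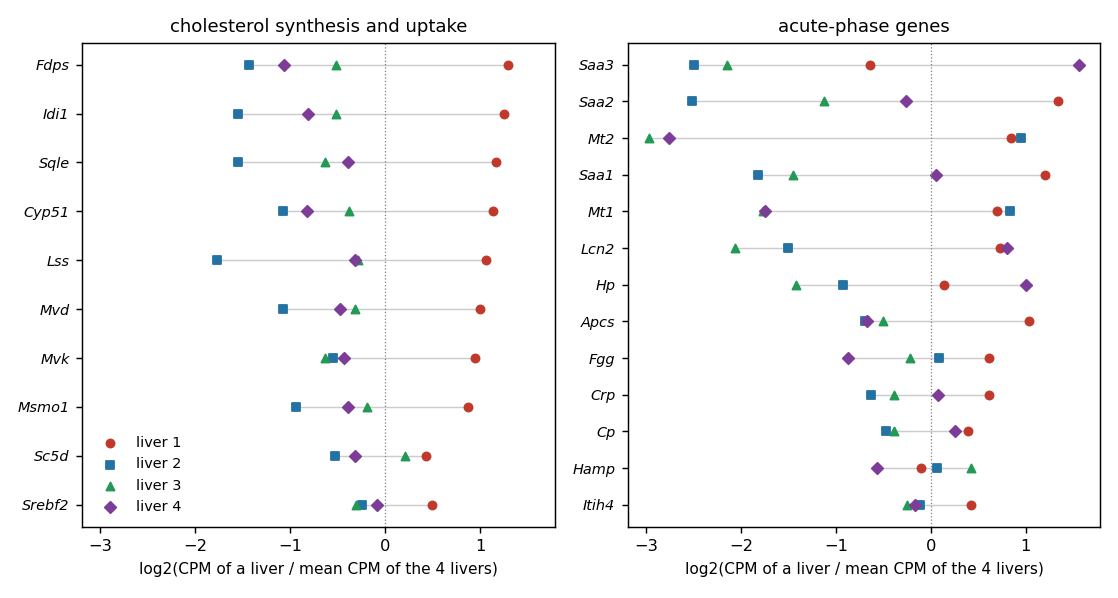
log2 ratio of the CPM of a liver to the mean CPM of the 4 livers (horizontal axis) for the members of the cholesterol list (left) and of the acute-phase list (right) that the text names, with 4 points per gene and a grey line over their range, genes in order of CV. In the left panel all 10 genes have liver 1 furthest right, while in the right panel liver 1 leads for 7 of 13 genes and liver 4 for 3. Over all genes, liver 1 was highest for 40.9% and liver 4 for 28.7%.

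Interferon-induced and antigen-presentation genes held 0.541%, 0.361%, 0.2999% and 0.407%, and all 18 were lowest in liver 2 or 3, beside 38.0% and 23.3% of all genes for these livers. B2m, the light chain of class I antigen-presenting molecules, was at 2887, 2281, 1857 and 1928 CPM and H2-D1, a heavy chain, at 1601, 897, 747 and 1226 CPM. Irf7, a regulator of the interferon response, was at 83.8, 7.96, 10.1 and 27.0 CPM, and Ifit1, an interferon-induced antiviral gene, at 22.3, 5.24, 3.95 and 8.01 CPM, both highest in liver 1. Cd74, the class II invariant chain of antigen-presenting cells, stood at 189, 73.97, 96.0 and 242 CPM, highest in liver 4.

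Markers of the cell types of the liver were checked in the same libraries. In bulk tissue fewer cells of a type cannot be told apart from less RNA per cell. All 10 hepatocyte markers were above 1 CPM and together held 9.82%, 13.7%, 13.8% and 11.9% of the counts. The 13 Kupffer cell and macrophage markers summed to 720.1, 252, 285 and 656 CPM. Of the 12 genes above 1 CPM, 7 were highest in liver 1 and 5 in liver 4 with either scaling. Over all genes these shares were 40.9% and 28.7%, or 26.0% and 26.6% with TMM. Clec4f, a lectin found in Kupffer cells, was at 202, 60.9, 86.0 and 179.8 CPM, Cd5l at 152, 46.9, 49.4 and 115 CPM and Vsig4, a complement receptor, at 78.8, 26.8, 34.8 and 64.1 CPM. As for Hp and C3, livers 1 and 4 were above livers 2 and 3, and the part of these cells in the acute-phase, complement and interferon values was not tested.

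The 18 sinusoidal endothelial markers summed to 544, 333, 335 and 557 CPM, and the 17 stellate cell and fibroblast markers to 541, 568, 422 and 735 CPM. Dnase1l3, a secreted DNase of endothelium and macrophages, was at 84.0, 62.2, 60.6 and 90.6 CPM and Clec4g, a sinusoidal lectin, at 43.1, 29.8, 29.7 and 41.5 CPM. Dcn, the matrix proteoglycan decorin, was even, at 221, 179.6, 153 and 177 CPM, whereas Col1a2, a chain of type I collagen, stood at 17.0, 52.1, 12.1 and 76.4 CPM with livers 2 and 4 above livers 1 and 3. Lrat, which stores vitamin A in stellate cells, was at 12.8, 9.82, 13.5 and 25.5 CPM and highest in liver 4.

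Bile duct markers were scarce: 11 genes summed to 61.1, 45.7, 63.3 and 51.8 CPM. Spp1 was at 22.8, 19.9, 29.6 and 22.9 CPM and Sox9 at 4.52, 4.25, 4.94 and 5.41 CPM, with little spread. The epithelial adhesion gene Epcam, by contrast, was at 9.65, 0.655, 6.92 and 1.66 CPM and the duct keratin Krt19 at 4.13, 0.436, 3.21 and 1.08 CPM, both higher in livers 1 and 3 than in livers 2 and 4. Red blood cell genes summed to 1268, 1196, 939 and 1331 CPM, of which the hemoglobin genes made up most. T and NK cell markers summed to 17.3, 12.3, 4.76 and 11.3 CPM, B and plasma cell markers to 29.3, 11.5, 23.96 and 30.7 CPM, and neutrophil markers to 5.76, 3.71, 3.95 and 8.87 CPM. Of the 5 skeletal muscle markers Ckm and Mb were at 0 in all 4 livers, and of the 8 pancreatic acinar markers 4 were at 0 in all, while Acta1 was at 9.89, 8.51, 10.6 and 12.04 CPM and Amy2b at 4.28, 4.25, 3.40 and 4.47 CPM. Adipocyte markers summed to at most 0.218 CPM in any liver.

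**Figure D4:**
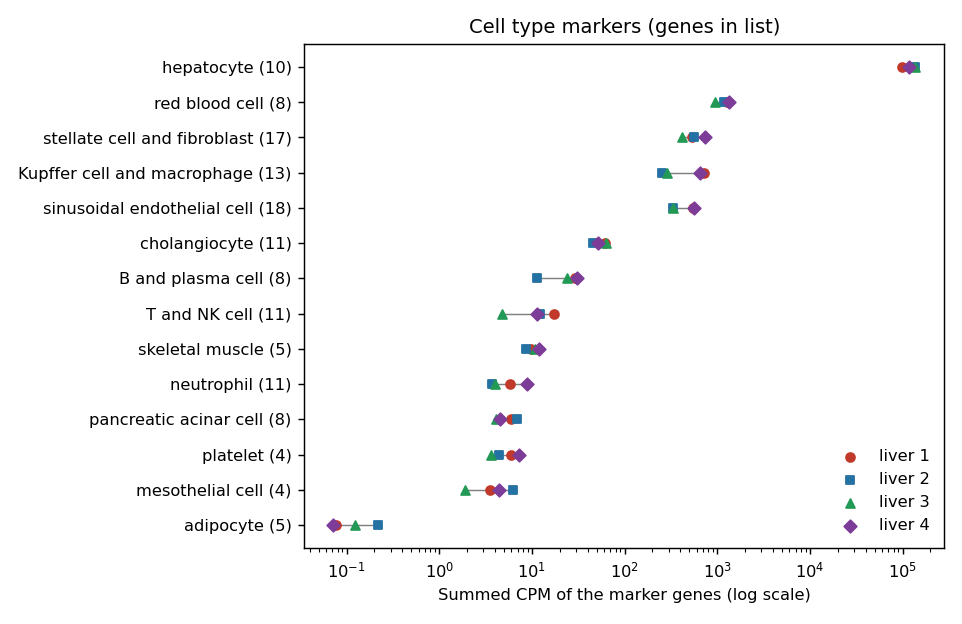
Summed CPM of the marker genes of each cell type (horizontal axis, log scale), with the number of genes in brackets and a point for each of the 4 wild-type livers. Hepatocyte markers lie between 98245 and 137599 CPM, the macrophage list runs from 252 to 720.1 CPM with livers 1 and 4 on the right, and the lists of lymphocytes, neutrophils, muscle, pancreas, platelets, mesothelium and fat do not exceed 30.7 CPM.

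Zonation genes were expressed on both sides. The 15 pericentral genes held 1.22%, 1.54%, 1.39% and 1.09% of the counts and the 14 periportal genes 1.06%, 0.819%, 1.17% and 1.17%. Glul, glutamine synthetase of the innermost pericentral hepatocytes, was at 685, 693, 553 and 456 CPM, lowest in liver 4, and Rgn at 1594, 1508, 1533 and 1193 CPM. Arg1, arginase, was at 1848, 1388, 1739.7 and 1457 CPM and Ass1 at 1109, 1240.0, 1428 and 1382 CPM. Unique windows had a median of 99.9% over the periportal genes but a lowest share of 51.8%, the same as in the urea cycle list. Single levels in these lists can thus miss reads that fit several places. Liver 2 was highest for the pericentral and lowest for the periportal sum. Cyp2e1, at 7528, 10491, 9107 and 6775 CPM, held most of the pericentral sum. Of the 14 pericentral genes above 1 CPM, livers 1 and 2 were each highest for 6, beside 40.9% and 21.4% of all genes. Of the 14 periportal genes, 7 were lowest in liver 1 and 6 in liver 2, beside 16.1% and 38.0%. The single genes thus did not all follow the sums.

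Transcription factors of hepatocyte identity held 0.329%, 0.2995%, 0.321% and 0.334%, a narrow range. Hnf4a was at 674, 490.4, 589 and 706 CPM, Ppara, the fatty acid receptor that governs oxidation, at 338, 292, 394 and 351 CPM, and Cebpa at 211, 314, 322 and 253 CPM. In the growth hormone axis, Ghr, the receptor, was at 741, 690.1, 987 and 969.7 CPM and its target Igf1 at 944, 611, 754 and 809 CPM. Igfbp2, a binding protein of insulin-like growth factors, was at 197, 396, 177 and 168 CPM, higher in liver 2 than elsewhere.

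All 4 livers had RNA of the Y chromosome. Ddx3y was at 85.2, 51.5, 69.5 and 58.6 CPM, Eif2s3y at 48.6, 41.8, 41.0 and 31.5 CPM, Uty at 17.4, 11.6, 16.1 and 14.0 CPM and Kdm5d at 12.2, 14.4, 15.01 and 9.45 CPM, while Xist, the RNA that silences an X chromosome in females, was at 0.234, 0.218, 0.124 and 0.289 CPM, near the 3-count floor of 0.185 to 0.327 CPM. The labels give no sex, and expressed Y genes with almost no Xist are the pattern of male mice. The 10 genes known to be higher in male than in female mouse liver held 0.548%, 0.503%, 0.577% and 0.551%, and the 14 known to be higher in females 0.126%, 0.134%, 0.148% and 0.165%. The 4 highest of the female list were Cyp3a44, Cyp3a41a, Cyp2a4 and Cyp3a41b, members of large families. Unique windows fell to 0.765% in the female and to 13.4% in the male list. Both shares thus depend on how reads that fit several genes were placed.

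The male genes were not uniform. Cyp2d9 was at 875, 1034, 1109 and 1128 CPM, Slco1a1 at 924, 856, 1068 and 1136 CPM and Ugt2b1 at 804, 831, 983 and 999 CPM, with CVs of 11.1%, 12.9% and 11.2%. Hsd3b5, a steroid dehydrogenase of male liver, was at 55.1, 112, 193 and 46.8 CPM and Elovl3, a fatty acid elongase, at 19.2, 54.7, 56.8 and 15.003 CPM, each higher in livers 2 and 3 than in livers 1 and 4. Cyp7b1, an oxysterol hydroxylase, was at 862, 518, 444 and 316 CPM and Cyp4a12a, the male omega-hydroxylase, at 500.0, 433, 724 and 786 CPM, with 41.9% unique windows. Cyp4a12b stood at 232, 194, 311 and 348 CPM and Gstp1 at 189.9, 225, 244 and 383 CPM.

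The female genes differed widely among themselves. Sult2a1 was at 1.09, 0.436, 0.618 and 0.216 CPM, Cux2 at 4.05, 0.764, 0.988 and 0.505 CPM, Hao2 at 1.87, 1.20, 1.91 and 4.90 CPM, Cyp17a1 at 6.15, 2.73, 3.58 and 3.75 CPM, Sult3a1 at 9.50, 2.18, 5.19 and 1.80 CPM and A1bg at 7.94, 2.40, 6.05 and 5.19 CPM. Cyp2b13 was at 8.33, 22.4, 16.4 and 22.3 CPM, whereas Cyp2b9 reached 26.7, 125, 65.0 and 94.6 CPM. Of the Cyp3a members of the list, the values were 352, 287, 313 and 321 CPM for Cyp3a44, 270.2, 262, 294 and 338 CPM for Cyp3a41a, 237, 231, 275 and 307 CPM for Cyp3a41b and 164, 149, 165 and 154 CPM for Cyp3a16. Unique windows were 0.765% for Cyp3a41a and 5.73% for Cyp3a41b, so the reads of this pair cannot be assigned to either gene. Cyp2a4 was at 162, 220.2, 322 and 385 CPM.

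Clock genes, whose RNA levels swing over the day, differed between the livers, and liver 2 stood apart for many of them. Nr1d1, the repressor REV-ERB alpha, was at 23.7, 119.9, 84.1 and 32.1 CPM, high in livers 2 and 3. Dbp, an output factor of the clock, was at 51.5, 69.0, 113 and 43.6 CPM, highest in liver 3. Arntl (BMAL1), the activator that Nr1d1 represses, was at 2.26, 4.04, 1.24 and 2.24 CPM and Npas2 at 0.545, 0.546, 0.679 and 0.361 CPM. Per1, Per2 and Per3, its inhibitors, were at 32.2, 22.04, 29.4 and 36.9 CPM, 27.4, 7.09, 23.4 and 33.1 CPM and 34.3, 16.1, 40.2 and 27.7 CPM, and all 3 were lowest in liver 2.

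Further members of the list were measured as well. Cry1 was at 10.1, 4.36, 6.18 and 16.8 CPM, Noct at 49.8, 8.51, 19.4 and 26.0 CPM and Usp2 at 78.6, 15.9, 69.3 and 77.0 CPM, each lowest in liver 2. Ciart was at 11.4, 4.25, 18.5 and 7.72 CPM, Nfil3 at 11.99, 7.96, 8.83 and 21.0 CPM and Bhlhe41 at 1.401, 2.51, 2.96 and 0.721 CPM. Tef, at 229.7, 129.9, 250.2 and 278 CPM, and Bhlhe40, at 192, 95.6, 222 and 158 CPM, were lowest in liver 2 as well. Clock, Cry2, Hlf and Nr1d2 had CVs of 18.2%, 14.3%, 17.1% and 22.2%. In all, 12 of the 19 clock genes above 1 CPM were lowest in liver 2, beside 38.0% of all genes, and the median CV of the list was 44.8% over 4 livers and 18.4% without liver 2. Egr1, an immediate early gene, followed Nr1d1 at 12.9, 77.8, 44.1 and 11.3 CPM. The time of collection is not given, and its part was not tested.

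Genes used as references in quantitative PCR were checked for evenness. Their 15 members had a median CV of 15.6%, beside 20.05% over all genes. Ppia was at 15.9, 15.7, 15.2 and 14.5 CPM (CV 4.06%), Pgk1 at 83.9, 79.8, 82.7 and 89.9 CPM (CV 5.06%), Eef1a1 at 1187, 979.6, 1115 and 962 CPM and Hprt at 107, 85.3, 83.5 and 90.7 CPM. Polr2a, by contrast, was at 46.2, 25.7, 35.9 and 53.2 CPM (CV 29.8%) and Tfrc at 15.3, 7.64, 7.72 and 9.23 CPM. Actb stood at 579.5, 479.5, 466 and 657 CPM, Ywhaz at 135, 89.8, 99.9 and 92.5 CPM, Gusb at 23.7, 18.4, 17.97 and 24.02 CPM, Tbp at 10.1, 8.73, 8.40 and 7.14 CPM and Sdha at 278, 390.4, 379 and 326 CPM. Gapdh, at 20.3, 34.4, 22.6 and 31.2 CPM, had 13.4% unique windows, Eef1a1 17.5% and Ppia 37.8%, so their counts are uncertain where reads of pseudogene copies could not be placed.

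Ribosomal proteins and the respiratory chain shared a highest liver. Cytosolic ribosomal proteins, with 85 genes, held 0.418%, 0.461%, 0.415% and 0.385% of the counts, and mitochondrial ribosomal proteins, with 78 genes, 0.160%, 0.180%, 0.157% and 0.157%. Nuclear-encoded subunits of the respiratory chain, with 82 genes, held 0.857%, 1.07%, 0.951% and 0.843%. In each of these 3 classes most members above 1 CPM were highest in liver 2, with 56 of 82, 49 of 77 and 63 of 79, beside 21.4% of all genes, and with TMM 63, 60 and 70. Atp5b, a subunit of ATP synthase, was at 1206, 1356, 1262 and 1193 CPM, Cox4i1, of cytochrome c oxidase, at 335, 409.7, 385 and 310.4 CPM, and Rpl4, of the large ribosomal subunit, at 349.8, 368, 391 and 304 CPM. The median share of unique windows was 45.5% over the ribosomal proteins, which limits their single values. The 15 rows of the mitochondrial genome were at 0 in all 4 livers, so they give no level.

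Genes of cell division held few counts. The 30 S phase and mitosis genes held 0.0291%, 0.0135%, 0.0208% and 0.0410% of the counts, and 18 of the 23 above 1 CPM were highest in liver 4 (17 with TMM), beside 28.7% of all genes, and 18 lowest in liver 2, beside 38.0%. Ccnd1, cyclin D1, was at 133, 42.7, 91.2 and 157 CPM, Mcm6, of the replicative helicase, at 14.5, 5.78, 9.51 and 28.3 CPM, and Pcna, the sliding clamp, at 20.6, 14.6, 18.7 and 19.6 CPM. Mki67, the proliferation marker, was at 2.10, 1.31, 0.618 and 1.95 CPM.

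The genes that the tumor models delete had low levels in these wild-type livers. E2f7 was at 1.17, 0.764, 0.494 and 0.721 CPM, E2f8 at 4.75, 7.96, 5.44 and 5.41 CPM and Rb1 at 11.2, 5.78, 7.54 and 7.57 CPM. E2f7 and E2f8 are the atypical E2F repressors, and Rb1 is the retinoblastoma protein that holds the activating E2Fs in check. The other pocket proteins were Rbl2, at 36.1, 29.6, 30.8 and 35.5 CPM, and Rbl1, at 6.31, 1.75, 3.15 and 9.45 CPM. The activators E2f1, E2f2 and E2f3 were at 3.58, 1.42, 3.89 and 6.92 CPM, 3.04, 0.218, 0.926 and 2.16 CPM and 7.78, 3.71, 4.82 and 8.58 CPM. All 3 were lowest in liver 2, beside 38.0% of all genes, and E2f2 was there under the level of 3 counts, 0.327 CPM.

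The remaining E2Fs and their partners were more even, with E2f4 at 17.9, 19.7, 16.4 and 19.9 CPM, E2f5 at 7.01, 5.02, 6.55 and 5.48 CPM, E2f6 at 28.1, 21.4, 19.3 and 21.8 CPM, Tfdp1 at 9.50, 8.07, 9.20 and 10.96 CPM and Tfdp2 at 17.5, 16.7, 21.1 and 18.8 CPM. Per length, E2f4 (20.4 ± 2.25 TPM) and E2f6 (20.4 ± 4.08 TPM) were the highest of the 13 genes and did not differ beyond their SDs, and E2f7 (0.193 ± 0.0739 TPM) was the lowest. Of fetal and tumor markers, Afp, the fetal counterpart of albumin, was at 2.49, 3.38, 2.22 and 4.54 CPM and Gpc3, an oncofetal proteoglycan, at 1.25, 2.29, 0.247 and 1.23 CPM.

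Over the 12719 genes with a mean of at least 1 CPM, the median CV was 20.05%, where counting error alone would give 7.53%, and 11601 genes (91.2%) had a variance above that of Poisson counting. The ratio of the median CV to that from counting was larger at higher levels. For 5184 genes of 1 to 10 CPM the median CV was 27.4%, beside 14.6% from counting, for 6250 genes of 10 to 100 CPM 16.8% beside 5.69%, for 1157 genes of 100 to 1000 CPM 16.8% beside 2.12%, and for 128 genes above 1000 CPM 19.8% beside 0.640%. The common biological coefficient of variation of edgeR, which removes the counting part, was 25.2%. Livers 2 and 3 were the closest pair, with a median absolute log2 difference of 0.22 and 313 genes more than 2-fold apart. They are also the pair whose column names share a letter of unknown meaning, and its part was not tested. Livers 1 and 2 were the most distant, at 0.37 and 1266 genes. Both measures used CPM without TMM, which shifts the log2 levels by -0.13 in liver 1, 0.09 in liver 2 and 0.08 in liver 3. Part of the distance between livers 1 and 2 thus lies in the scaling, and the pairs were not recomputed with TMM.

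**Figure D5:**
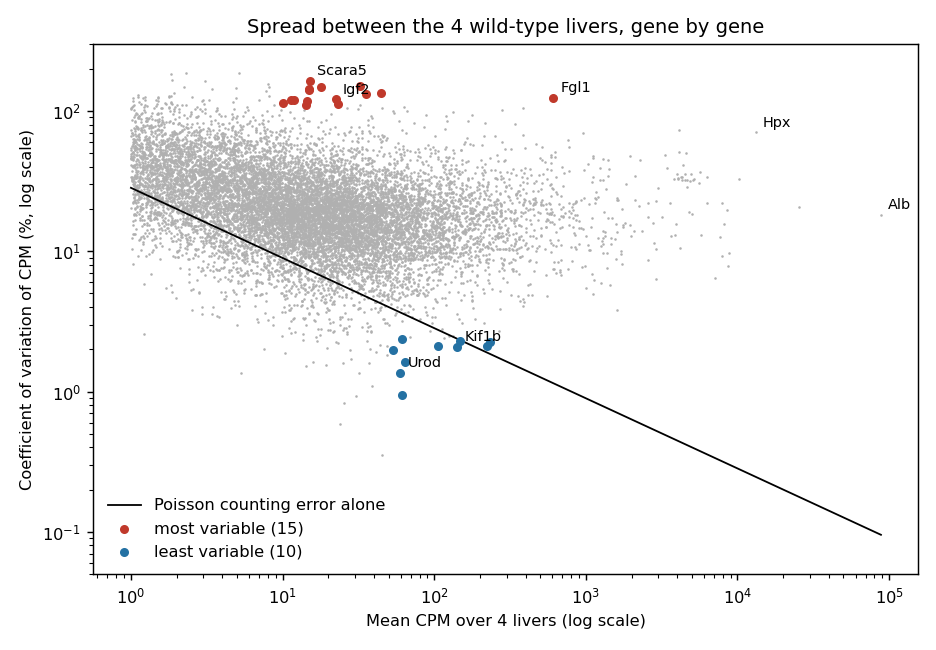
Coefficient of variation of CPM over the 4 wild-type livers (vertical axis, percent, log scale) against mean CPM (horizontal axis, log scale), with the curve that counting error alone would give. The points are those of the 12719 genes that have a symbol. Most points lie above the curve, the 15 most variable genes from 10 CPM upward reach 110% to 164%, and the 10 least variable from 50 CPM upward lie at 0.950% to 2.36%, near or below the curve.

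Among the 7535 genes of at least 10 CPM, 233 (3.09%) had a CV over 50%. The 15 highest of those with a symbol each had their peak in liver 1, in liver 4 or in a pair of livers. Of these 15, 7 were among the 15 highest without liver 1, 10 without liver 2, 11 without liver 3 and 7 without liver 4. Scara5, a ferritin receptor, led with 52.4, 3.49, 2.90 and 1.80 CPM. Nnmt, which methylates nicotinamide, was at 105, 15.1, 2.29 and 6.85 CPM, Dnajc12, a co-chaperone of amino acid hydroxylases, at 134, 15.2, 15.2 and 13.6 CPM and Fgl1, a fibrinogen-like hepatokine, at 1733, 429, 167 and 118 CPM. These 4 were highest in liver 1. Gvin1 and Gm4070, very large interferon-induced GTPase genes with 0.502% and 0.912% unique windows, were highest there too, at 47.0, 1.96, 4.82 and 5.84 CPM and 46.3, 1.85, 3.89 and 7.43 CPM.

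Liver 4 was highest for another group. Ubd, a ubiquitin-like protein induced by inflammatory cytokines, was at 8.49, 1.85, 4.08 and 57.7 CPM, and Tnfaip3, an inhibitor of NF-kappa-B signalling, at 7.47, 3.27, 3.89 and 33.1 CPM. Map3k13, at 5.76, 4.04, 3.21 and 27.1 CPM, Cplane1, at 7.71, 4.8004, 6.73 and 37.7 CPM, and the actin-severing Gsn, at 7.08, 17.2, 7.29 and 61.6 CPM, were likewise highest in liver 4. Saa3, given above, had the same peak.

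The last 3 of the 15 were high in a pair of livers. Igf2, the fetal insulin-like growth factor, was at 0.778, 31.2, 0.618 and 57.1 CPM, and H19, the non-coding RNA of the same imprinted locus, at 10.3, 31.7, 6.24 and 77.0 CPM, both higher in livers 2 and 4. Gp2, a glycoprotein of zymogen granules and of gut M cells, was at 27.3, 0.109, 18.1 and 0.0721 CPM, and Spib, an Ets factor of B cells and M cells, at 36.3, 0.546, 20.3 and 1.08 CPM, both high in livers 1 and 3, with Gp2 under the level of 3 counts in livers 2 and 4.

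Among those of the 7535 genes that have a symbol, 47 were more than 2-fold higher in liver 1 than in each other liver, by CPM without TMM. The number was 14 in liver 2, 2 in liver 3 and 23 in liver 4. The 2 of liver 3 were Angptl8, a feeding-induced regulator of lipoprotein lipase, at 7.71, 4.47, 24.2 and 9.88 CPM and Etnppl, a phosphoethanolamine lyase, at 35.7, 57.4, 117 and 56.3 CPM. More than 2-fold lower in a liver than in each other were 14 genes in liver 1, 45 in liver 2, 6 in liver 3 and 10 in liver 4. Those of liver 1 included Car3, carbonic anhydrase 3, at 1119.8, 5479, 5869.5 and 5718 CPM. Both of livers 1 and 4 were more than 2-fold above both others for 53 genes, among them Lcn2, the integrin Itgal, at 17.8, 4.04, 4.57 and 18.7 CPM, and the macrophage marker Adgre1, at 29.7, 7.53, 8.83 and 35.3 CPM.

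Livers 2 and 4 shared 9 such genes, of which 7 were Igf2, H19, Fbln2, Postn, Col6a1, Col1a2 and Acta2, the last 5 of them matrix or contractile genes of fibroblasts. Postn, periostin, was at 5.22, 21.3, 3.64 and 29.8 CPM, Fbln2, fibulin 2, at 3.19, 20.1, 1.48 and 30.7 CPM and Acta2, smooth muscle actin, at 4.98, 14.6, 5.06 and 18.5 CPM. Livers 1 and 3 shared 8, with Gp2 and Spib, the immunoglobulin heavy chain Ighm, at 59.2, 6.87, 63.9 and 16.1 CPM, and the macrophage genes Mmp12, at 24.1, 1.42, 16.6 and 2.52 CPM, and Chil3, at 26.2, 3.38, 14.3 and 4.11 CPM. Livers 2 and 3 shared 8, among them Egr1, Elovl3, Nr1d1 and Hsd3b5, livers 1 and 2 shared 7, and livers 3 and 4 shared only Ntrk2, a neurotrophin receptor, at 27.9, 15.9, 64.9 and 70.0 CPM.

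At the other end, the 10 genes with the lowest CV from 50 CPM upward were Ugt1a6a, Urod, Tmed4, Kars, Kif1b, Fam107b, Selenbp1, Gm6548, Sdf4 and Bsdc1. Urod, a heme synthesis enzyme, was at 59.2, 60.3, 58.8 and 60.4 CPM, Kars, the lysyl-tRNA synthetase, at 53.7, 54.4, 52.0 and 54.0 CPM and Selenbp1, a selenium-binding methanethiol oxidase, at 222, 227, 218 and 228 CPM. Counting error alone would give these 3 genes CVs of 3.67%, 3.87% and 1.89%, beside their own of 1.36%, 1.98% and 2.11%, and 0 of the 10 were among the 10 lowest with TMM or DESeq2 scaling. The promoters of the 100 genes with the lowest CV had a median CG ratio of 0.743 and TATAAA in 0 of 102, close to the 0.718 and 1.06% of the promoters of genes of at least 1 CPM outside the 1000 highest, whereas the 100 with the highest CV from 10 CPM upward had a median ratio of 0.324 and TATAAA in 6 of 88 (6.82%).

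Families that belong to other tissues were near silent. Of 1107 olfactory receptor genes, 741 had 0 counts in all 4 livers and 2 reached 1 CPM, and the whole family held 0.00364%, 0.00153%, 0.00282% and 0.00322% of the counts. Of 350 vomeronasal receptor genes 237 were at 0 in all livers, as were 31 of 42 beta-defensins and 46 of 54 keratin-associated proteins. Homeobox cluster genes, which lay down the body axis, held 0.000420%, 0.000393%, 0.000272% and 0.000404%, with 0 of the 39 at 1 CPM. Collagens, by comparison, held 0.0825%, 0.130%, 0.0882% and 0.141%, a sum that was higher in livers 2 and 4. Of the 22 collagens above 1 CPM, 14 were highest in liver 4, 7 in liver 1 and 1 in liver 2. Over all genes these livers were highest for 28.7%, 40.9% and 21.4%. The nuclear non-coding RNA Malat1 was at 369, 221, 235 and 176 CPM.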

How the data were processed

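Per the submitters' processing notes and the study's methods, polyadenylated RNA of snap-frozen livers was sequenced as 40-base reads on a SOLiD instrument, aligned to mm9 with BWA and counted per gene with featureCounts. The authors deposited raw counts of 26301 genes by Entrez identifier. The strand setting, the annotation and the handling of reads with several matches are not given in the sources used here. Of these genes, 24191 matched a RefSeq symbol and 2110, with a mean of 0.822% of the counts, did not and stay unnamed. The unnamed genes were left out of the most and least variable genes and of the 2-fold counts.

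CPM was the count over the total of 4 libraries of 9165812 to 16190797 counts. TPM used union exon lengths of GENCODE on mm9. SDs are over the 4 livers, with no test. TMM and the common dispersion came from edgeR 4.0.16 in R 4.3.3, other size factors from DESeq2 1.42.0, and the rest was done in Python 3.11.15 with numpy 2.4.6 and pandas 2.3.3. Counting error was taken as Poisson, which assumes independent reads. Scripts were tested on simulated data. The smallest total sets the coarsest step, 0.327 CPM for 3 counts.

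The livers, gene lists and classes were chosen with earlier results of these data known. Named genes are the 25 highest, the 4 highest of each list, the 15 most variable from 10 CPM and the 10 least variable from 50 CPM upward, whole clock, sex, reference and E2F lists, and cell markers, a few of which are not reported here. Afp, Angptl8, Apcs, Apob, Bhmt, Car3, Cebpa, Chil3, Cpt1a, Crp, Cyp2a5, Cyp4a10, Cyp4a14, Cyp51, Cyp7a1, Cyp8b1, Etnppl, F2, Fbln2, Fdps, Glul, Gpc3, Idi1, Ifit1, Ighm, Irf7, Itgal, Lcn2, Lss, Mki67, Mmp12, Mt1, Mt2, Mup21, Mup4, Mup6, Mvd, Mvk, Ntrk2, Postn, Saa1, Saa2, Sqle, Srebf1 and Srebf2 lie outside this rule and were named after their values were seen. Alternatives were other scaling, filters and leaving out each liver.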

Additional observations from a re-analysis of the deposited data

Results flagged for a closer look

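Among the 4 livers, the highest or the lowest value was set apart from the nearest other by a larger part of the whole range than Dixon's 95% critical value for 4 samples in 25 of 261 lists and genes tested. Chance sets apart about 1 in 20, and many of the genes were named for their spread, so the number is no measure of how often livers stand apart. The liver set apart was liver 1 in 13, liver 2 in 5 and liver 4 in 7 of them, and liver 3 in 0.

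Liver 1 was the highest for Apcs (1959 CPM), the cholesterol genes Cyp51 (744 CPM), Fdps (327 CPM) and Mvk (48.7 CPM), the bile acid gene Cyp7a1 (609 CPM), Dnajc12 (134 CPM), Nnmt (105 CPM), Scara5 (52.4 CPM), the near-identical genes Gvin1 (47.0 CPM) and Gm4070 (46.3 CPM), and the female-biased transcription factor Cux2 (4.05 CPM). It was the lowest for Car3 (1120 CPM) and F2 (1522 CPM).

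Liver 2 was the highest for Cyp8b1 (703 CPM), Igfbp2 (396 CPM), Cyp4a14 (47.6 CPM) and the share of mitochondrial ribosomal proteins (0.180% of counts), and the lowest for the clock output gene Usp2 (15.9 CPM). Liver 4 was the highest for complement factor Cfb (3377 CPM), the serum amyloid gene Saa3 (105 CPM), Ubd (57.7 CPM), Tnfaip3 (33.1 CPM), Cplane1 (37.7 CPM) and Map3k13 (27.1 CPM), and for the summed share of the 5 lists of plasma proteins (32.4% of counts). The cause was not tested in any of these.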

How the results depend on the processing

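Of 122 values recomputed under alternatives, 99 moved by less than the spread between replicates or, for counts, stayed within 1.5 times. Shares recomputed without a liver could not do otherwise, because leaving out 1 of 4 values always moves a mean by less than the SD. Their part of the 99 is therefore no sign of stability. The cholesterol share, for example, went from 0.474% to 0.356% without liver 1. The other 23 moved further. The share of plasma and major urinary proteins, 38.5% of counts, became 32.5% when albumin was left out of both the class and the total. It became 46.9% per kilobase of exon. The median CV of 20.05% became 16.8% from 10 CPM upward and 34.0% with no filter on level, and ranged from 17.8% to 21.4% when each liver was left out in turn. The 10 least variable genes had 0 members in common with those by TMM or by DESeq2 size factors, whereas the 15 most variable had 14 in common with each, 11 by the SD of log2 levels, and 7, 10, 11 and 7 when livers 1, 2, 3 and 4 were left out in turn. The median CV of the cholesterol genes became 25.2% without liver 1 that of the lipogenic genes 27.98% and that of the clock genes 18.4% without liver 2, and the number of genes highest in liver 1 went from 5196 to 3304 with TMM, chosen after seeing the data. No paired analysis was possible because the 4 livers form 1 group and the results come from no test. The depth of liver 2, 9165812 counts, limits genes below about 1 CPM.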
